A study of Danio rerio with 9 samples.

Results

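The genes described here are the chaperones that fold proteins in the cytosol, in mitochondria and in the endoplasmic reticulum (ER), together with the sensors and transcription factors that switch them on. They were chosen by symbol, as known genes of the heat shock and unfolded protein responses; no measured value enters the rule, but earlier results of these data were known. Of 60 symbols, *hsp70.2* had no row in the count table, and the others led to 58 rows of the 16575 genes measured. These were 26 genes of the cytosolic heat shock group, 3 mitochondrial chaperones and 29 genes of the ER. For *cryaba* and *cryabb* the gene name table has the symbol *cryab* with 2 identifiers, of which 1 had a row in the count table. Which copy that row stands for was not determined. The gene name table lists *hsp90aa1.2* as *hsp90aa1*. It names 8 of the rows in pairs that share a symbol (*hspa4*, *hspa8*, *ahsa1* and *dnajb9*), which are given with their identifiers.

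RNA-seq was performed on fresh cardiac ventricles of adult zebrafish at 5 months of age. The 5 control libraries (1 to 5) were *vegfc*(+/+):*vegfd*(+/+). The 4 mutant libraries (6 to 9) were *vegfc*(hy-/-);*vegfd*(-/-), homozygous for a hypomorphic allele of *vegfc* and for a mutation in *vegfd*, and no treatment or injury was given. Both genes encode growth factors of lymphatic vessels, and the hypomorphic allele keeps some *vegfc* function. The deposited description speaks of different lines, and whether the controls were siblings of the mutants is not given in the sources used here, so that genetic background and mutation cannot be told apart. Whether a library came from 1 animal or from several is not given in the sources used here, so p-values measure the spread between these libraries, which may be in part technical.

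When cytosolic proteins unfold, the transcription factor Hsf1 is freed from chaperones and raises the genes for Hsp70, Hsp90, their J-domain partners and the small heat shock proteins. Proteins that misfold in the ER are sensed separately, by Perk (the product of *eif2ak3*), Ire1 (*ern1*) and Atf6. Perk slows translation and favours Atf4 and its target *ddit3*, which encodes Chop, Ire1 splices the *xbp1* mRNA, and Atf6 is cut to release a transcription factor that acts with Xbp1 on ER chaperones and degradation genes. In heart muscle, chaperones such as Bag3 and the small heat shock proteins maintain the contractile apparatus.

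Library totals lay between 23302636 and 33496006 counts, and levels are given in CPM, which divides each count by the library total after TMM scaling. The targeted gene *vegfd* had 34 to 154 counts in control libraries and 4 to 18 in mutant libraries, while *vegfc*, whose allele need not lower its mRNA, had 35 to 122 and 59 to 195. Cardiomyocyte markers were present in every library, with a summed level of 115288 to 133629 CPM in controls and 97694 to 109097 CPM in mutants. None of their 10 rows passed the test, although the mutant sums all lay below the control sums, and the part of this in the results below was not tested. Of 6 rows for smooth muscle markers of the bulbus, 1 was lower, *myh11* (ENSDARG00000009782, log2 fold change -1.38 ± 0.30 SE, adjusted p = 0.0374), and 1 higher, *tagln* (ENSDARG00000045408, 1.41 ± 0.32 SE, adjusted p = 0.0407). Among all genes, 1.21% passed as lower and 2.13% as higher. Of the 6 rows, 4 were fitted lower and 2, both *tagln*, higher, with a median log2 fold change of -1.09. At an unadjusted p under 0.05 in edgeR, 4 were lower and 1 higher, beside 9.87% and 11.0% of all genes. The summed level of the 6 rows was 155 to 348 CPM in controls and 156 to 293 CPM in mutants. The part of these markers in the results was not tested either. Control library 2 held the smallest total and had 684 genes at 0 counts, against 69 to 127 in the other controls and 107 to 320 in mutants. Control library 5 was low for rapidly induced genes, and the summed level of 8 immediate early genes was 47.9 CPM there. In all controls this sum reached from that value to 847 CPM, with a median of 516 CPM, and in mutants it was 667 to 1346 CPM.

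Across the cytosolic group, 3 of 26 genes were higher in mutant ventricles: *hsp70.3*, *hsp70.1* and the J-protein gene *dnajb5*. None was lower, and 23 did not pass the test (edgeR quasi-likelihood test with Benjamini-Hochberg adjustment over all genes, threshold 0.05). Of all genes tested, 3.34% passed, 2.13% higher and 1.21% lower in mutants. At an unadjusted p under 0.05 there were 9 genes of the group, 5 higher and 4 lower, while 20.9% of all genes stood there, 11.0% higher and 9.87% lower. For the count of 0 lower genes, the edgeR likelihood ratio test gave 2, DESeq2 gave 3 and limma-voom with quality weights gave 0. The shares of all genes passing those other tests were not worked out, so these counts have no base beside them. The median log2 fold change of the group was 0.14, beside -0.01 over all genes, and 16 genes were fitted higher and 10 lower, where 48.7% of all genes were fitted higher. The summed level of the group was 5349 to 9462 CPM in controls and 7488 to 8223 CPM in mutants, so the mutant range lay inside the control range. In whole ventricles, fewer cells of a type and less RNA per cell cannot be told apart.

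**Figure D1:**
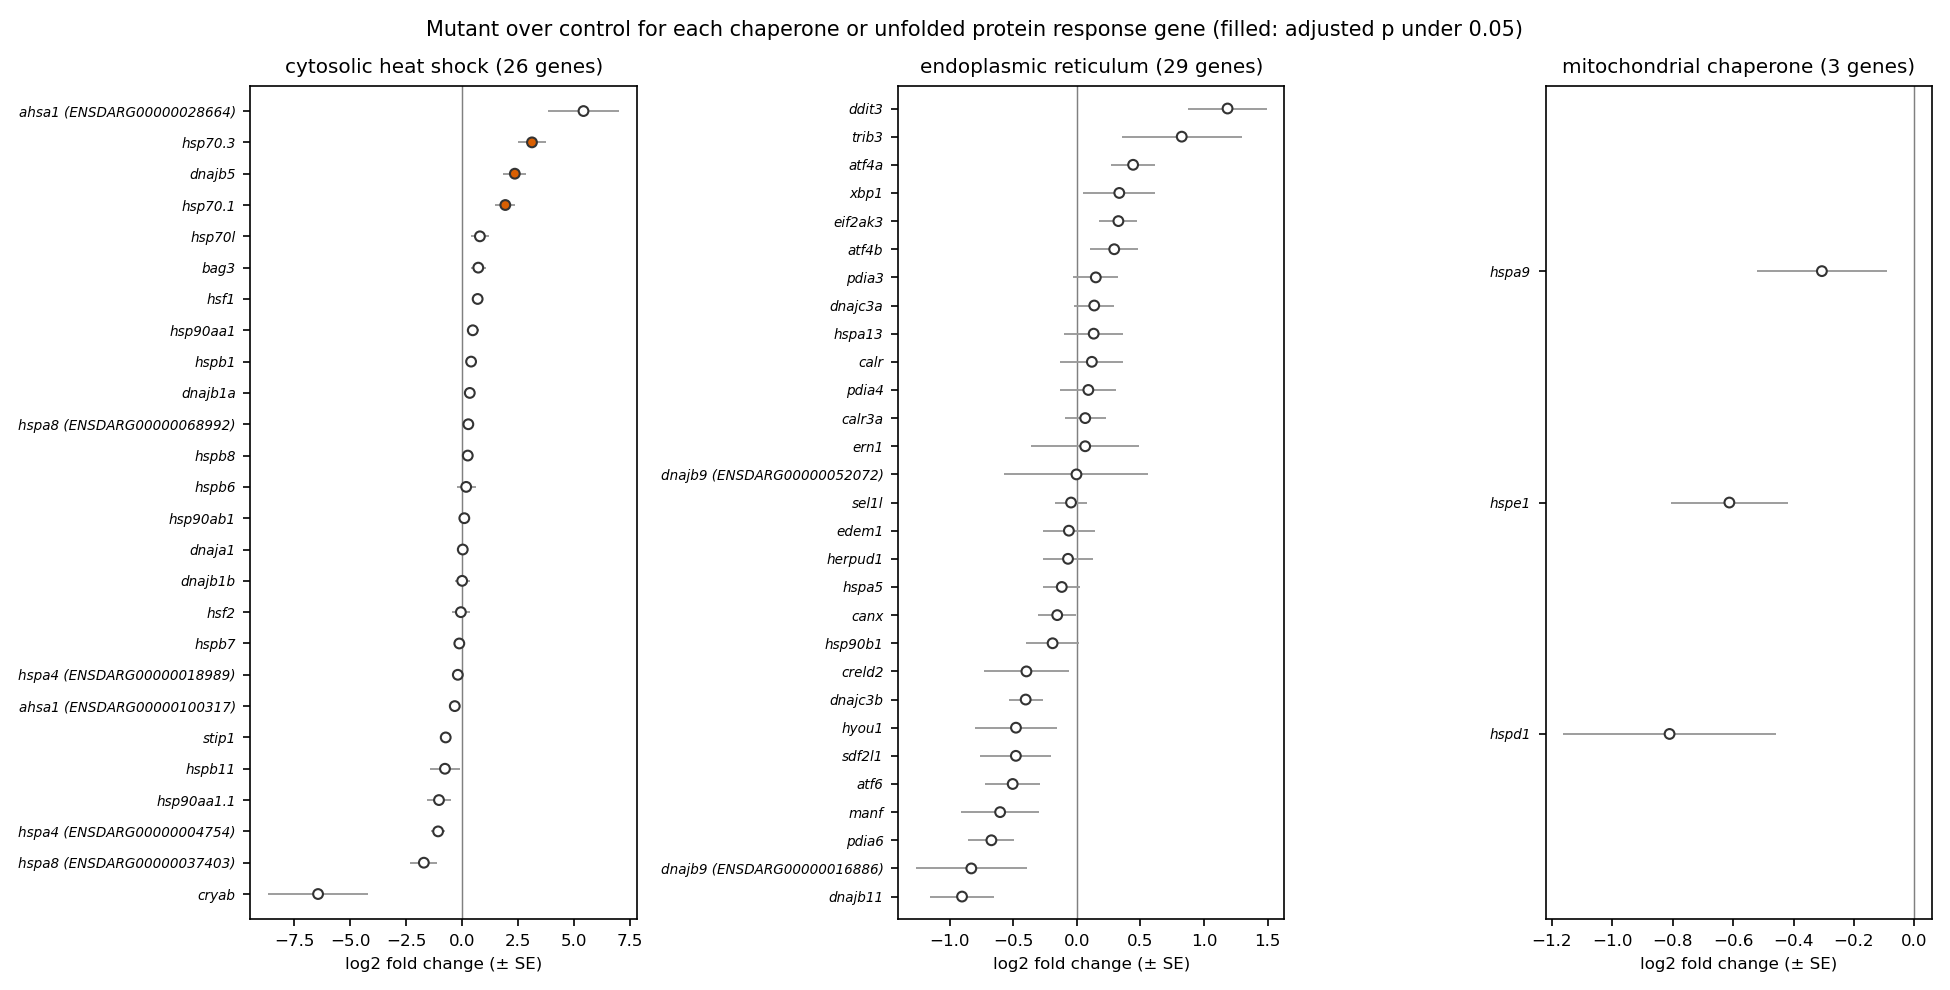
Log2 fold change of mutant over control ventricles (x axis, with its standard error as a bar) for each gene of the 3 groups, ordered by size, with a different x scale in each panel. Filled points are the 3 genes with an adjusted p under 0.05, *hsp70.3*, *dnajb5* and *hsp70.1*, and every ER and mitochondrial point is open.

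Transcription factors of the heat shock response come first. Levels of *hsf1*, its main activator, were 25.1, 24.1, 34.5, 25.1 and 41.0 CPM in control libraries 1 to 5 and 39.9, 53.1, 61.4 and 39.1 CPM in mutant libraries 6 to 9. Only control library 5 reached into the mutant range. The log2 fold change was 0.69 ± 0.21 (SE) and the adjusted p 0.0956 in edgeR's quasi-likelihood test, while limma-voom gave 0.0484 and DESeq2 0.0307. The related factor *hsf2* gave a log2 fold change of -0.06 ± 0.40 (SE), and its controls spread from 10.5 to 66.3 CPM.

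Hsp70 proteins bind unfolded stretches of other proteins and release them in cycles of ATP hydrolysis. The gene *hsp70.3* was at 3.62, 1.33, 0.990, 1.86 and 1.42 CPM in control libraries 1 to 5 and at 22.2, 31.9, 2.88 and 7.25 CPM in mutant libraries 6 to 9. Mutants 6 and 7 were far above the controls, and mutant 8 lay below control 1, so the groups overlapped. The difference was 8.69-fold (log2 fold change 3.12 ± 0.64 SE, adjusted p = 0.0331). The near copy *hsp70.1* was at 2.72, 3.29, 0.905, 2.26 and 1.16 CPM in controls and at 9.45, 12.9, 4.61 and 4.29 CPM in mutants. Here all mutants exceeded all controls, as was the case for 1 of the 26 genes of the group in this direction and for 6.07% of all genes, and mutants 6 and 7 were again the highest. The difference in *hsp70.1* was 3.81-fold (log2 fold change 1.93 ± 0.45 SE, adjusted p = 0.0468). Because the 2 genes are near copies and reads of low mapping quality were left out, the division of reads between them is uncertain.

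Another inducible gene, *hsp70l*, had the mutant libraries in the same order as *hsp70.1* without passing the test. Its levels were 24.0, 26.8, 10.04, 16.9 and 8.12 CPM in controls and 36.1, 42.7, 26.3 and 13.99 CPM in mutants. Mutants 8 and 9 lay within the control range, and the adjusted p was 0.288 for a log2 fold change of 0.79 ± 0.40 (SE). The constitutive gene *hspa8* (ENSDARG00000068992), which serves folding in unstressed cells, was at 1482, 1662, 1208, 1239 and 818 CPM in controls and at 1612, 1366, 1522 and 1709 CPM in mutants. Its groups overlapped (log2 fold change 0.28 ± 0.18 SE, adjusted p = 0.429 in edgeR). The other row of that symbol, *hspa8* (ENSDARG00000037403), was low, at 2.04, 5.30, 2.60, 3.14 and 1.66 CPM in controls and 2.21, 0.628, 0.468 and 0.286 CPM in mutants. Mutants 7 to 9 were below every control and mutant 6 was not. The log2 fold change was -1.71 ± 0.60 (SE), and edgeR's quasi-likelihood test was not passed (adjusted p = 0.140). On leaving out each library in turn, this row passed that test in 1 of 9 fits (0.0384 without mutant 6), with adjusted p-values up to 0.275. In DESeq2 the adjusted p was 0.0388.

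Of the Hsp110-type genes, whose products recharge Hsp70 with ATP, *hspa4* (ENSDARG00000004754) was at 81.5, 147, 88.0, 45.1 and 102 CPM in controls and 42.0, 31.9, 65.7 and 36.2 CPM in mutants. Control 4 lay within the mutant range and the other controls above it. The log2 fold change was -1.08 ± 0.32 (SE) and the adjusted p 0.0960 in edgeR's quasi-likelihood test. On leaving out each library in turn, this row passed that test in 1 of 9 fits (0.0498 without control 4), with adjusted p-values up to 0.212. Without controls 2 and 5 the adjusted p of that test was 0.265. With all libraries the adjusted p was 0.0291 in the likelihood ratio test and 0.0145 in DESeq2. The other copy, *hspa4* (ENSDARG00000018989), gave -0.19 ± 0.18 (SE).

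J-domain proteins hand substrates to Hsp70 and start its ATPase. Of 4 such genes in the group, *dnajb5* passed the test, at 0.742, 0.686, 1.33, 0.755 and 1.04 CPM in controls and 8.997, 5.72, 1.19 and 2.83 CPM in mutants. Mutants 6, 7 and 9 were above all controls, and mutant 8 lay among them, as it was the lowest mutant for *hsp70.3* too. The difference was 5.11-fold (log2 fold change 2.35 ± 0.51 SE, adjusted p = 0.0376 in edgeR). Of the other J-protein genes, *dnaja1* gave 0.03 ± 0.17, *dnajb1a* 0.34 ± 0.16 and *dnajb1b* 0.00 ± 0.33 (log2 fold change ± SE), with adjusted p-values of 0.252 to 1. The exchange factor *bag3*, which works with Hsp70 and Hspb8 at the sarcomere, was at 241, 132, 162, 157 and 55.7 CPM in controls and 340, 247, 212 and 186 CPM in mutants. Control 1 lay inside the mutant range and control 5 far below all others, and the test was not passed (log2 fold change 0.72 ± 0.34 SE, adjusted p = 0.260).

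The 3 called genes depended on the test and on which libraries were used. In limma-voom *hsp70.1* passed, whereas *hsp70.3* (log2 fold change 2.51, adjusted p = 0.168) and *dnajb5* (1.77, adjusted p = 0.181) did not. On leaving out each library in turn, *hsp70.3* stayed past the threshold in 3 of 9 fits (without control 1, mutant 8 or mutant 9), *hsp70.1* in 1 (without control 2) and *dnajb5* in 1 (without mutant 8), with adjusted p-values of at most 0.0841, 0.129 and 0.0976 and log2 fold changes of 2.54 to 3.52, 1.57 to 2.15 and 1.83 to 2.67. Without control libraries 2 and 5 together, a choice made after seeing the data, none passed (adjusted p = 0.119, 0.0947 and 0.119 in the same order). Their log2 fold changes in that fit were 2.90, 2.00 and 2.31, beside 3.12, 1.93 and 2.35 with all libraries.

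Immediate early genes, which encode factors that rise within minutes of many stimuli, were mostly fitted higher in mutants. Of 8 rows, 7 were fitted higher in mutants and 1 passed the test, *ier2b*, which was 1.66 to 12.9 CPM in controls and 28.3 to 57.4 CPM in mutants (log2 fold change 2.46 ± 0.47 SE, adjusted p = 0.0239 in edgeR). Of all genes, 48.7% were fitted higher and 2.13% passed as higher. At an unadjusted p under 0.05 in edgeR, 3 of the 8 were higher and 0 lower, beside 11.0% and 9.87% of all genes. Control 5 was the lowest control for 7 of the 8 rows. The level of *fosb* was 5.41, 0, 4.72, 2.01 and 0.178 CPM in controls and 40.9, 22.1, 4.97 and 14.3 CPM in mutants. Mutants 6 and 7 were thus highest for *fosb* and mutant 8 lowest, the order also seen for *dnajb5*. The part of these genes' behaviour in the Hsp70 and *dnajb5* results was not tested.

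**Figure D2:**
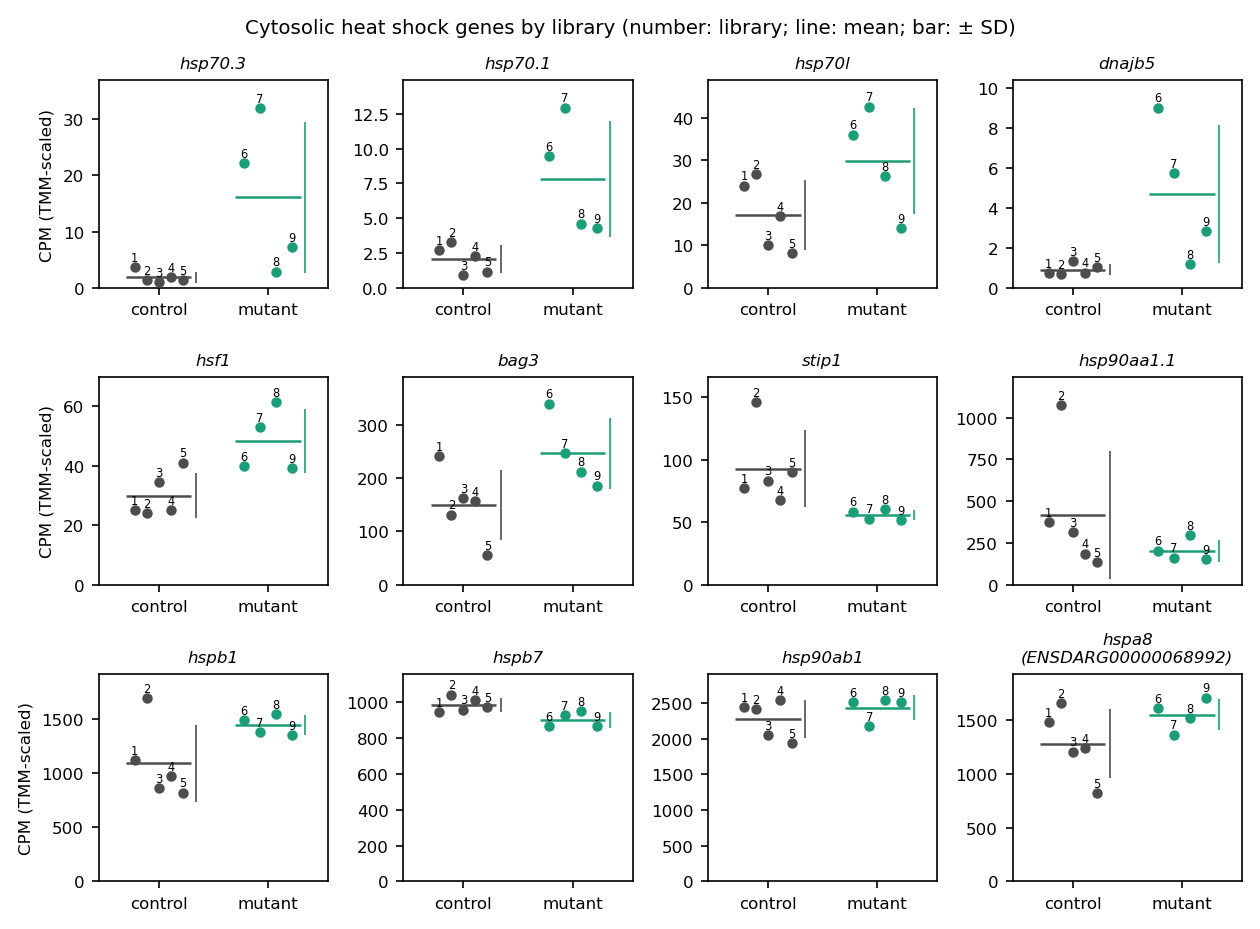
CPM (y axis, linear from 0) of 12 cytosolic heat shock genes in each of the 5 control and 4 mutant libraries, with library numbers beside the points, the mean as a line and ± SD as a bar. Mutants 6 and 7 are the highest points for *hsp70.3*, *hsp70.1*, *hsp70l* and *dnajb5*, while control 2 is the highest point for *stip1* and *hsp90aa1.1*.

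Hsp90 acts late in folding, on kinases, receptors and, in striated muscle, myosin. The constitutive gene *hsp90ab1* was at 2449, 2418, 2055, 2538 and 1937 CPM in controls and 2512, 2176, 2541 and 2516 CPM in mutants, a narrow range with full overlap (log2 fold change 0.10 ± 0.12 SE, adjusted p = 0.691 in edgeR). In contrast, *hsp90aa1.1*, needed for myosin folding in zebrafish skeletal muscle, spread widely, at 374, 1076, 315, 186 and 133 CPM in controls and 204, 161, 295 and 152 CPM in mutants. Its log2 fold change of -1.04 ± 0.54 (SE, adjusted p = 0.305) became -0.31 without control 2, the library with the value of 1076 CPM. The row *hsp90aa1* gave 0.47 ± 0.26 (SE).

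None of the Hsp90 cochaperones in this group passed edgeR's quasi-likelihood test, although *stip1* passed as lower with the likelihood ratio test (adjusted p = 0.0406) and DESeq2 (adjusted p = 0.0181). The level of *stip1*, which bridges Hsp70 and Hsp90, was 77.0, 146, 83.3, 67.9 and 90.3 CPM in controls and 58.4, 52.9, 60.2 and 51.6 CPM in mutants. All mutants lay below all controls, as for 1 of 26 genes of the group in this direction and 4.46% of all genes, and the adjusted p was 0.0875 (log2 fold change -0.74 ± 0.21 SE). Of the rows for *ahsa1*, an activator of the Hsp90 ATPase, ENSDARG00000028664 was nearly silent in 7 libraries and not in the other 2. It was at 0.0927, 0.320, 0.396, 0.0314 and 0.504 CPM in controls and at 0, 16.3, 30.5 and 0 CPM in mutants, that is, 0 counts in mutants 6 and 9 against 519 and 848 counts in mutants 7 and 8. Its fitted log2 fold change of 5.42 ± 1.60 (SE) had an adjusted p of 0.0932 in edgeR's quasi-likelihood test, 0.0316 in the likelihood ratio test and 0.04997 in DESeq2. The second row, *ahsa1* (ENSDARG00000100317), was present throughout (20.5 ± 3.55 CPM, SD, n = 5, and 16.3 ± 4.997 CPM, SD, n = 4).

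Small heat shock proteins hold unfolding proteins in a soluble state without using ATP. The level of *hspb7*, a gene of heart and skeletal muscle, was 942, 1041, 957, 1008 and 971 CPM in controls and 863, 927, 948 and 864 CPM in mutants. Its coefficient of variation among controls, 4.09%, was the smallest of the 26 genes, and the log2 fold change was -0.13 ± 0.09 (SE, adjusted p = 0.471). For *hspb1*, named after its values were seen, controls were at 1122, 1696, 862, 973 and 821 CPM and mutants at 1490, 1381, 1549 and 1354 CPM. Mutants exceeded every control but library 2, whose removal changed the adjusted p from 0.290 to 0.0408 and the log2 fold change from 0.40 to 0.61. Of the 9 edgeR fits without 1 library, *hspb1* passed in that 1 alone, and adjusted p-values reached 0.439. The remaining genes *hspb6*, *hspb8* and *hspb11* gave 0.18 ± 0.42, 0.25 ± 0.24 and -0.77 ± 0.67 (log2 fold change ± SE).

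The 1 row of the lens and muscle chaperone *cryab* showed presence in single libraries. It was at 0, 0, 0.0283, 5.03 and 11.4 CPM in controls and at 0, 0, 0.144 and 0 CPM in mutants. These are 160 and 384 counts in controls 4 and 5, 1 count in control 3, 4 counts in mutant 8 and 0 in the other 5 libraries. The fitted log2 fold change of -6.44 ± 2.24 (SE, adjusted p = 0.138 in edgeR) came with more than 4 counts in controls 4 and 5 only.

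**Figure D3:**
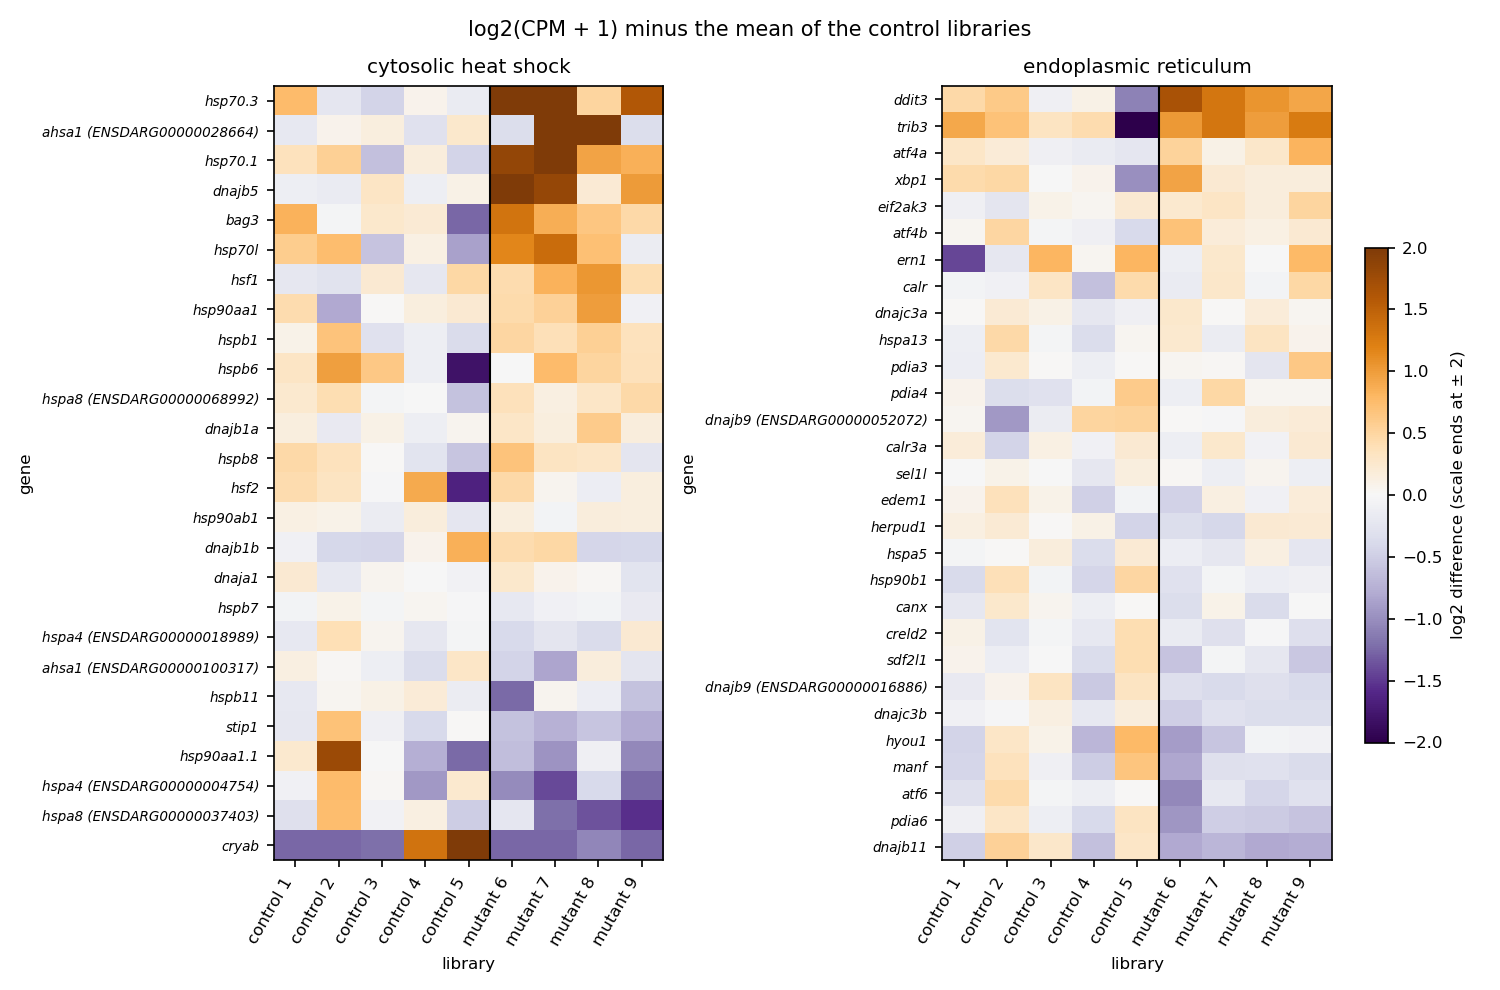
Difference of log2(CPM + 1) from the mean of the 5 controls (colour, in log2 units, capped at 2 in either direction) for the cytosolic and ER genes (rows) in each library (columns). Control 2 and control 5 have opposite colours for *hspb6* and *hsp90aa1.1*, mutants 6 and 7 are darkest for *hsp70.3* and *dnajb5*, and the top 2 ER rows are *ddit3* and *trib3*.

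Mitochondrial chaperones form a separate group, in which Hspa9 draws proteins into the matrix and Hspd1 folds them in a chamber closed by Hspe1. None of the 3 genes passed the test in either direction. At an unadjusted p under 0.05, 2 were lower, as were 9.87% of all genes. Neither the likelihood ratio test nor limma-voom called any, and DESeq2 called *hspe1* lower. All 3 were fitted lower, with a median log2 fold change of -0.61, which was -0.40 without control 2 and -0.27 without controls 2 and 5. Levels of *hspd1* were 68.4, 223, 94.5, 68.0 and 108 CPM in controls and 46.1, 70.7, 83.4 and 55.9 CPM in mutants (log2 fold change -0.81 ± 0.35 SE, adjusted p = 0.222). Its partner *hspe1*, named after its values were seen, was at 91.4, 169, 96.7, 96.6 and 113 CPM in controls and 65.8, 79.1, 84.5 and 67.2 CPM in mutants. All mutants lay below all controls for *hspe1*, as for 1 of the 3 genes and 4.46% of all genes. Its adjusted p was 0.113 in edgeR (log2 fold change -0.61 ± 0.19 SE). Control 2 was the highest control for all 3, and *hspa9* gave -0.31 ± 0.22 (SE). The log2 fold change of *hspd1* was -0.40 without that library, -0.27 without controls 2 and 5, and -0.42 in limma-voom.

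In the ER group, none of 29 genes passed the test in either direction. At an unadjusted p under 0.05, 6 of the 29 (20.7%) were found, 2 higher and 4 lower. Of all genes, 20.9% stood there, 11.0% higher and 9.87% lower. Of the other tests, the likelihood ratio test and DESeq2 each gave 1 higher gene, *ddit3*, and 2 lower, *dnajb11* and *pdia6*. With limma-voom *ddit3* alone passed. The shares of all genes passing those tests were not worked out. The median log2 fold change was -0.05, with 13 genes fitted higher and 16 lower, and 22 of 29 lay within 0.5 of 0. Groups did not overlap for *ddit3* and *trib3* (higher) and for *dnajb11*, *pdia6* and *dnajc3b* (lower), 2 and 3 of 29 genes beside 6.07% and 4.46% of all genes.

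The sensors did not pass the test. Levels of *eif2ak3*, encoding Perk, were 9.12, 8.23, 10.6, 10.2 and 11.8 CPM in controls and 11.9, 12.4, 11.2 and 14.5 CPM in mutants, where control 5 lay within the mutant range (log2 fold change 0.33 ± 0.15 SE, adjusted p = 0.242). The level of *ern1*, encoding Ire1, was 4.64, 12.1, 25.8, 14.7 and 25.7 CPM in controls and 13.02, 17.3, 14.2 and 24.96 CPM in mutants. The control range enclosed the mutant range (log2 fold change 0.07 ± 0.42 SE, adjusted p = 0.951). For *atf6*, the third sensor, controls were at 16.4, 28.4, 20.003, 18.9 and 20.7 CPM and mutants at 9.45, 17.7, 14.9 and 16.7 CPM. Control 1 lay within the mutant range, and the log2 fold change was -0.50 ± 0.21 (SE, adjusted p = 0.214 in edgeR).

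Genes *ddit3*, *atf4a* and *atf4b*, for factors downstream of Perk, were fitted higher, and none passed edgeR's quasi-likelihood test with all libraries. The gene *ddit3*, encoding Chop, was at 37.4, 41.9, 24.95, 29.1 and 12.2 CPM in controls and at 87.9, 67.7, 57.1 and 52.0 CPM in mutants. Every mutant was above every control and control 5 was the lowest of all, and the difference was 2.27-fold (log2 fold change 1.19 ± 0.31 SE, adjusted p = 0.0679 in edgeR). It passed the threshold without control 5 (0.0495), and without controls 2 and 5 (log2 fold change 1.12, adjusted p = 0.046). Of the 9 edgeR fits without 1 library, *ddit3* passed in 1, that without control 5, and adjusted p-values reached 0.164. Levels of *atf4a*, whose protein is made mainly when translation is slowed, were 208, 195, 159, 151 and 145 CPM in controls and 245, 183, 206 and 299 CPM in mutants. Controls 1 and 2 lay within the mutant range (log2 fold change 0.44 ± 0.17 SE, adjusted p = 0.178), and the second copy *atf4b* gave 0.29 ± 0.19 (SE).

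The pseudokinase gene *trib3*, a target of Atf4 and Chop, was named after its values were seen. It was at 185, 158, 122, 131 and 18.1 CPM in controls and 199, 242, 195 and 234 CPM in mutants. The groups did not overlap, but control 5 lay far below the rest and the adjusted p was 0.347 (log2 fold change 0.82 ± 0.47 SE). For *xbp1*, the target of Ire1, controls were at 212, 217, 155, 164 and 78.2 CPM and mutants at 301, 183, 174 and 175 CPM. Controls 1 and 2 lay within the mutant range, and control 5 was below all other libraries (log2 fold change 0.33 ± 0.28 SE, adjusted p = 0.548, with 0.10 without mutant 6 and 0.16 without control 5), and counts per gene do not separate its spliced mRNA. Control 5, low for *ddit3*, *trib3* and *xbp1*, was also the control with the lowest immediate early sum, and the bearing of that on these genes was not tested. It was not low throughout the group. Of the 29 ER genes, control 5 was the highest control for 14 and the lowest for 6, while control 4 was the lowest for 14.

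**Figure D4:**
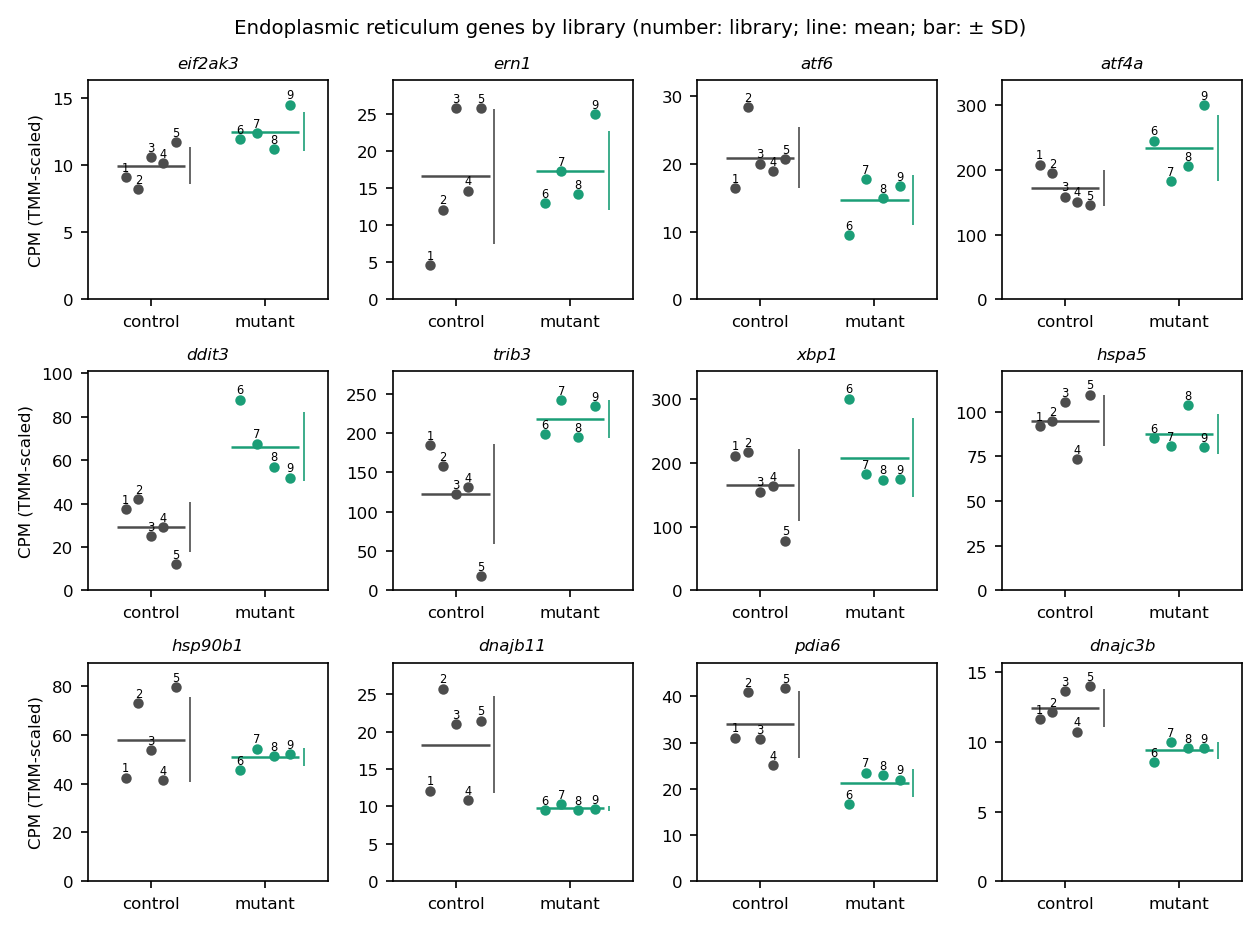
CPM (y axis, linear from 0) of 12 ER genes in each of the 5 control and 4 mutant libraries, with library numbers beside the points, the mean as a line and ± SD as a bar. Mutant points of *ddit3* (52.0 to 87.9 CPM) lie above all controls, those of *dnajb11* (9.51 to 10.3 CPM) lie below all controls, and those of *hspa5* lie inside the control range.

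None of the ER chaperones among the 29 genes, which include the best known targets of the unfolded protein response, passed the test. The level of *hspa5*, encoding BiP, the main Hsp70 of the ER, was 91.8, 94.9, 106, 73.3 and 110 CPM in controls and 85.4, 81.0, 104 and 80.1 CPM in mutants. Its log2 fold change was -0.12 ± 0.14 (SE, adjusted p = 0.692), with the mutants inside the control range. The ER Hsp90 gene *hsp90b1* was at 42.4, 72.8, 53.6, 41.4 and 79.4 CPM in controls and 45.6, 54.3, 51.1 and 52.1 CPM in mutants, again inside it (log2 fold change -0.19 ± 0.21 SE, adjusted p = 0.649). Its fitted direction turned without controls 2 and 5, to 0.15. Further helpers of BiP, *hyou1*, *manf*, *sdf2l1* and *creld2*, were fitted between -0.60 and -0.40 and *hspa13* at 0.13, with adjusted p-values of 0.292 to 0.794.

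Of the ER J-proteins, *dnajb11*, which brings unfolded proteins to BiP, was at 12.1, 25.7, 21.0, 10.9 and 21.4 CPM in controls and 9.52, 10.3, 9.51 and 9.67 CPM in mutants. The mutants lay close together just under the lowest controls, 4 and 1, and the log2 fold change was -0.90 ± 0.25 (SE, adjusted p = 0.0804 in edgeR). On leaving out each library in turn, *dnajb11* passed in 1 of 9 edgeR fits (0.0461 without control 4), with adjusted p-values up to 0.169. Without controls 2 and 5, the log2 fold change was -0.59 and the adjusted p in edgeR 0.234. Levels of *dnajc3b*, which encodes a BiP partner that also restrains Perk, were 11.6, 12.1, 13.6, 10.7 and 13.98 CPM in controls and 8.54, 9.96, 9.54 and 9.54 CPM in mutants (log2 fold change -0.40 ± 0.13 SE, adjusted p = 0.128). Its copy *dnajc3a* gave 0.14 ± 0.16 (SE). The gene *dnajb9*, a target of Xbp1, was low in both of its rows. One, ENSDARG00000016886, was at 0.834, 1.19, 1.61, 0.440 and 1.60 CPM in controls and 0.665, 0.597, 0.684 and 0.604 CPM in mutants (log2 fold change -0.83 ± 0.44 SE, adjusted p = 0.308). The other, ENSDARG00000052072, was at 1.24, 0.137, 0.962, 2.07 and 2.13 CPM in controls and 1.19, 1.13, 1.44 and 1.49 CPM in mutants, with a fitted difference near 0 and an SE of 0.57.

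Lectins retain glycoproteins until they are folded. The level of *calr* was 8.19, 8.001, 10.8, 5.22 and 11.9 CPM in controls and 7.49, 10.5, 8.18 and 12.2 CPM in mutants (log2 fold change 0.12 ± 0.25 SE, adjusted p = 0.834). For *canx* the values were 52.1, 73.1, 63.3, 55.8 and 61.2 CPM in controls and 47.8, 64.5, 46.8 and 60.5 CPM in mutants (log2 fold change -0.15 ± 0.15 SE, adjusted p = 0.600). Both overlapped between genotypes, as did *calr3a* (0.07 ± 0.16 SE). Among protein disulfide isomerases, *pdia6* was at 31.1, 41.0, 30.7, 25.2 and 41.8 CPM in controls and 16.8, 23.5, 22.9 and 22.003 CPM in mutants. All mutants lay below all controls (log2 fold change -0.67 ± 0.18 SE, adjusted p = 0.0725 in edgeR). Controls 5 and 2 were its highest, and without them the log2 fold change was -0.45 (adjusted p = 0.188 in edgeR). The related genes *pdia3* and *pdia4* gave 0.15 ± 0.18 and 0.09 ± 0.22 (SE). Genes of ER-associated degradation, *edem1*, *sel1l* and *herpud1*, were fitted between -0.07 and -0.05, with adjusted p-values of 0.878 to 0.898.

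The other genes of these pathways, 154 rows in 6 lists, gave a wider view. Of them 3 were higher and 7 lower in mutants, where 2.13% of all genes were higher and 1.21% lower. Fitted values were higher for 58 and lower for 96, with a median log2 fold change of -0.10, and 48.7% of all genes were fitted higher. In the list of cytosolic cochaperones, 3 of 36 were lower and 0 higher by edgeR's quasi-likelihood test (0 higher at an unadjusted p under 0.05, and by the 3 other tests), and 27 were fitted lower (median log2 fold change -0.20). The gene *hspa14*, an Hsp70 relative at the ribosome, was 21.0 to 32.7 CPM in controls and 10.5 to 15.4 CPM in mutants (log2 fold change -1.05 ± 0.19 SE, adjusted p = 0.0204). The kinase-specific Hsp90 cochaperone *cdc37* was 72.8 to 135 CPM in controls and 39.0 to 51.4 CPM in mutants (-1.03 ± 0.19 SE, adjusted p = 0.0208). The J-protein gene *dnaja2* (ENSDARG00000104066) was 239 to 271 CPM in controls and 167 to 206 CPM in mutants (-0.47 ± 0.11 SE, adjusted p = 0.0450), and did not pass with the likelihood ratio test (adjusted p = 0.0635) or with scaling by library size alone (adjusted p = 0.0563). These 3 were among 5 of the 36 in which all mutants lay below all controls, as in 4.46% of all genes.

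In the list of ER folding and glycoprotein quality control, 3 of 48 were lower and 0 higher (0 higher at an unadjusted p under 0.05, and by the 3 other tests), with a median log2 fold change of -0.11. The disulfide isomerase gene *p4hb*, whose product is also a subunit of collagen prolyl hydroxylase, was 90.03 to 107 CPM in controls and 62.2 to 68.1 CPM in mutants (-0.58 ± 0.10 SE, adjusted p = 0.0193). The BiP exchange factor *sil1* was 7.24 to 8.26 CPM and 4.06 to 5.69 CPM (-0.78 ± 0.16 SE, adjusted p = 0.0327). The glycoprotein folding sensor *uggt2* was 8.71 to 15.6 CPM and 5.30 to 7.95 CPM (-0.92 ± 0.20 SE, adjusted p = 0.0373). No mutant library reached the lowest control for any of the 3, and for no other gene of the 48 were the mutants all below the controls, against the 1.21% called lower and the 4.46% without overlap in this direction among all genes.

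Among sensors and Atf4 targets, 1 of 26 was higher and 1 lower, where 2.13% of all genes were higher and 1.21% lower. All mutants lay above all controls for 4 of the 26 and below them for 1, beside 6.07% and 4.46% of all genes. At an unadjusted p under 0.05 there were 7 higher and 3 lower, beside 11.0% and 9.87% of all genes. Fitted log2 fold changes were higher for 14 and lower for 12, from -3.14 to 2.95, with a median of 0.06. The ER membrane protein gene *wfs1* (ENSDARG00000062341) was 6.20 to 7.66 CPM in controls and 18.4 to 26.7 CPM in mutants, 3.48-fold higher (log2 fold change 1.80 ± 0.15 SE, adjusted p = 0.000378). The Ire1 relative *ern2* was 8.84 to 13.8 CPM in controls and 3.78 to 6.28 CPM in mutants (-1.04 ± 0.21 SE, adjusted p = 0.0316). Of those that did not pass, 2 higher ones were named after their values were seen. They were *sesn2* at 0.88 ± 0.26 (SE, adjusted p = 0.0906) and *atf3* at 2.95 ± 0.87 (SE, adjusted p = 0.0928). No uncalled lower gene of the list was named, although the lowest fitted log2 fold change, -3.14, also belonged to a gene that did not pass. Of the list of ER-associated degradation, 1 of 16 was higher, beside 2.13% of all genes. This was *herpud2*, at 12.9 to 29.9 CPM in controls and 36.1 to 89.8 CPM in mutants (1.48 ± 0.29 SE, adjusted p = 0.0288).

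Of 14 genes of mitochondrial folding and proteolysis, 1 was higher, beside 2.13% of all genes. This was *dnajc19*, a J-protein gene of the import motor, at 7.04 to 12.1 CPM in controls and 16.2 to 28.3 CPM in mutants (1.05 ± 0.21 SE, adjusted p = 0.0288). The exchange factor *grpel2* gave 0.50 ± 0.12 (SE, adjusted p = 0.0564). In the list of the cytosolic chaperonin and prefoldin, none of 14 passed with any of the 4 tests, and all 14 lay within 0.5 log2 units of 0. At an unadjusted p under 0.05 in edgeR, 1 was higher and 1 lower, beside 11.0% and 9.87% of all genes. The smallest p-values there belonged to *cct2* (ENSDARG00000087206, -0.44 ± 0.16 SE, adjusted p = 0.148) and *pfdn4* (0.40 ± 0.14 SE, adjusted p = 0.149).

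On leaving out each library in turn, *wfs1* passed in 9 of 9 fits, *hspa14* in 7, *cdc37* and *p4hb* in 6, *herpud2*, *dnajc19* and *ern2* in 4, *sil1* in 3, *uggt2* in 1 and *dnaja2* in 0. Of these 10, *wfs1* and *cdc37* passed without control libraries 2 and 5.

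Genes *cdc37*, *ern2* and this *wfs1* row lie on the chromosome of *vegfc*, as do *dnaja1* and *dnajb1b*. The chromosome of *vegfd* holds *trib3*, the uncalled pathway genes *ero1b* and *cnpy2*, and the immediate early gene *ier2b*, which passed the test. Of 514 genes placed on the *vegfc* chromosome, 36 (7.004%) passed the test, against 328 (2.963%) of 11070 genes placed elsewhere. In the row order of the count table, *wfs1*, *ern2* and *cdc37* stood 235, 293 and 303 rows from *vegfc*. The uncalled members *dnaja1* and *dnajb1b* stood 76 and 256 rows from it. Other pathway genes on this chromosome did not pass either. They were *aip*, *mogs*, *tmx2* (ENSDARG00000007786), *sugt1*, *cct4*, *txndc11* and *hikeshi*, at 8, 35, 56, 97, 208, 318 and 395 rows from *vegfc*. On the *vegfc* chromosome a difference in genetic background and the effect of the mutation cannot be told apart. The same holds for *trib3* and *ier2b* on that of *vegfd*.

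**Figure D5:**
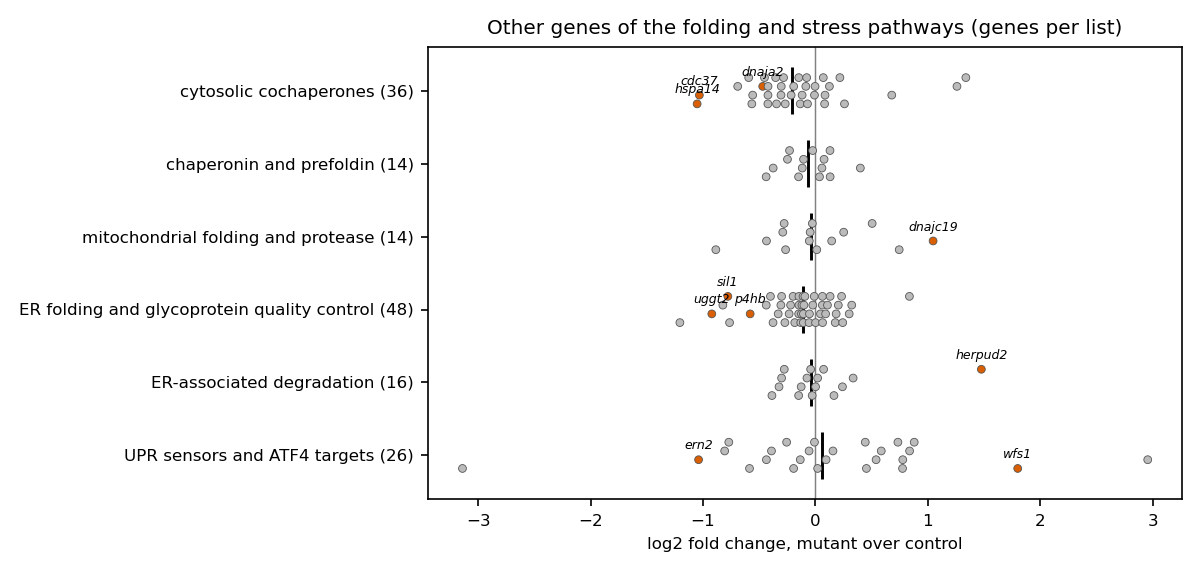
Log2 fold change of mutant over control (x axis) for the 154 other genes of the folding and stress pathways, 1 point per gene, by list (y axis, with the number of genes), with the list's median as a black bar. The 10 filled and named points passed the test, 3 to the right of 0 (*wfs1*, *herpud2*, *dnajc19*) and 7 to the left.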

How the data were processed

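Counts per gene of 9 libraries were analysed. The authors trimmed reads with Skewer, aligned them to GRCz11 with STAR 2.5.2a, counted them on the annotated strand with featureCounts 1.5.0 at a mapping quality of at least 20, and kept genes averaging 10 counts or more per library. The deposited values are raw counts, not normalized. Symbols came from a gene name table (15812 identifiers, 95.4%), and chromosomes from RefSeq symbols of another assembly (GRCz12tu), without coordinates. For members, pathway genes and markers, the chromosome was the commonest among the nearest rows of the count table with an unshared symbol. Their placement is thus inferred from row order.

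Counts were scaled by TMM and tested with the quasi-likelihood F test of edgeR 4.0.16 (R 4.3.3, legacy=TRUE, two-sided, no covariate) on 16575 genes with Benjamini-Hochberg adjustment and a threshold of 0.05 on the adjusted p. The script was tested on simulated counts. CPM comes from TMM-scaled totals, and SE is the absolute log2 fold change over the square root of F. Alternatives were the likelihood ratio test, DESeq2 1.42.0, limma-voom (limma 3.58.1) with quality weights, other scalings, filters on low counts (a mean of at least 50, or filterByExpr), a threshold of 0.1, and leaving out libraries.

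Members and lists were chosen with earlier results of these data known. Values in every library are given for genes past the threshold, the 5 other cytosolic and ER genes with the smallest p, and a fixed list of central genes. Of other lists, those past the threshold or otherwise the 2 with the smallest p are named. Names outside this rule were chosen after their values were seen, *sesn2*, *atf3*, *grpel2* and the second rows of shared symbols among them.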

Additional observations from a re-analysis of the deposited data

Results flagged for a closer look

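In 116 groups of 4 or 5 libraries (58 genes in 2 genotypes), 8 held a library far from the others by Dixon's criterion, where chance alone gives about 1 in 20 groups, or 5.8. Of these, 4 were high values of control library 2. They were *hsp90aa1.1* at 1076 CPM against 133 to 374 CPM in the other controls, *stip1* at 146 CPM against 67.9 to 90.3 CPM, *hspd1* at 223 CPM against 68.0 to 108 CPM and *hspe1* at 169 CPM against 91.4 to 113 CPM. In mutant library 6, *xbp1* was at 301 CPM against 174 to 183 CPM in the other mutants and *atf4b* at 255 CPM against 170 to 184 CPM. In mutant library 7, *hsp90ab1* was at 2176 CPM against 2512 to 2541 CPM. In mutant library 8, *cryab* was at 0.144 CPM, or 4 counts, against 0 in the other mutants.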

How the results depend on the processing

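No paired analysis was possible because the libraries of the genotypes share no replicate number. The median fold change of each group of members stayed within the spread between libraries in every setting. For the mitochondrial chaperones this was narrow, from -0.61 to -0.27 without controls 2 and 5, beside a spread of 0.34 (log2 units). That spread includes control 2, the control highest for all 3 genes, so for this group the comparison says little about stability. It says little for the ER group either, where the spread was 0.14 beside a median of -0.05. Without 1 library the ER median ran from -0.08 to 0.04, so its direction turned. In the cytosolic group the spread was 0.13 beside a median of 0.14, which ran from 0.09 to 0.20 without 1 library. Counts of genes past the threshold moved, and the share of all genes passing in each other setting was not worked out. Cytosolic genes called higher, 3 in the report, became 4 with the likelihood ratio test, 5 with DESeq2, 2 with limma-voom, 5 at an adjusted p under 0.1, 0 without control libraries 2 and 5 (chosen after seeing the data) and 0 to 2 on leaving out 1 library. Lower cytosolic genes, 0 in the report, became 2 with the likelihood ratio test, 3 with DESeq2, 2 at 0.1 and 0 to 1 without 1 library. ER genes called higher, 0 in the report, became 1 with the likelihood ratio test, DESeq2, limma-voom, at 0.1 and without controls 2 and 5, and 0 to 1 without 1 library. Lower ER genes, also 0, became 2 with the likelihood ratio test, DESeq2 and at 0.1, and 0 to 1 without 1 library. Lower mitochondrial chaperones became 1 with DESeq2. Other pathway genes called higher, 3 in the report, became 5 with the likelihood ratio test, 6 with DESeq2, 6 at 0.1, 1 without controls 2 and 5, and 1 to 5 without 1 library. The 7 lower ones became 2 without controls 2 and 5 and 0 to 6 without 1 library. The *vegfd* log2 fold change, -2.82 with an adjusted p of 0.0195, was -3.23 to -2.49 without 1 library, and its adjusted p rose to 0.0562 without mutant 6 and 0.0611 without mutant 7. The direction turned for *hsp90b1* (0.15 without controls 2 and 5), for *dnajb9* (ENSDARG00000052072, 0.086 with limma-voom, -0.28 to 0.24 without 1 library), for *ern1* (-0.17 to 0.28) and for *calr* (-0.022 to 0.26), none of which passed the test. Why these values moved was not tested. In control libraries *dnajb5*, *hsp70.3*, *hsp70.1* and both *dnajb9* rows had 3 to 117 counts.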

Other observations

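Values of genes chosen after they were seen are given here without a test of their own. The glucocorticoid-induced Hsp90 cochaperone gene *fkbp5*, of the cochaperone list, was at 724, 412, 809, 574 and 4.86 CPM in control libraries 1 to 5 and 1330, 1344, 969 and 1189 CPM in mutant libraries 6 to 9. All mutants exceeded all controls, as for 1 of the 36 genes of its list and 6.07% of all genes. The value of 4.86 CPM in control library 5 stood far under the next lowest, 412 CPM in control library 2. The adjusted p was 0.426 in edgeR (log2 fold change 1.26 ± 0.84 SE). The stress-induced factor gene *atf3* was at 119, 12.4, 33.4, 28.2 and 4.18 CPM in controls and 677, 206, 79.2 and 259 CPM in mutants, again lowest in control library 5. Mutant library 6 was highest for *atf3*, as for *bag3*, *ddit3*, *dnajb5* and *xbp1*. Over the whole groups it did not lead. It was the highest mutant for 6 of 26 cytosolic and 4 of 29 ER genes, and the lowest for 6 and 12.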
